A study of Mus musculus with 19 samples.

Results

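Glycolysis turns glucose into pyruvate and lactate, and several of its steps can be run by more than one enzyme, each encoded by its own gene. Such isoenzymes differ in affinity, regulation and tissue: in the kidney, proximal tubules make glucose and burn fatty acids, while distal segments and many immune and repair cells use glycolysis. The 9 genes described here encode isoenzymes of hexokinase (Hk1 and Hk2), phosphofructokinase (Pfkl, Pfkm and Pfkp), aldolase (Aldoa), phosphoglycerate kinase (Pgk1), pyruvate kinase (Pkm) and lactate dehydrogenase (Ldha). They were taken by symbol from a list set for this work, and all 9 of 55536 genes in the count table were found and tested.

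RNA of whole mouse kidney was sequenced in 19 libraries of 3 groups. The healthy group (n = 4) is called untreated in the sample labels and vehicle in the series design. The vehicle group (n = 7) and the zalfermin group (n = 8) are both called UUO in the design, usually short for unilateral ureteral obstruction, in which tying off a ureter scars the kidney. The labels of these 15 libraries give MASH in its place, a name used for a liver disease, and they give the drug only as 0194-0499, taken here to be zalfermin, an analogue of the hormone FGF21. The sources used here give no strain, age, sex, dose or time. Nothing says that libraries came from separate animals, so p-values measure the spread between libraries, which may be technical.

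Libraries held 12209122 to 14844103 counts. Levels below are CPM, the gene's count as a share of the TMM-scaled library total, and comparisons used edgeR's quasi-likelihood test with Benjamini-Hochberg adjustment over all 16026 tested genes, a gene being called at an adjusted p below 0.05. Vehicle replicate 6 stood apart, with 19788 genes detected and 1.10% mitochondrial counts, and results that rest on it are given without it too. Summed proximal tubule markers (10 genes) lay at 23729 to 29704 CPM (healthy), 5440 to 9283 (vehicle) and 5342 to 9411 CPM (zalfermin), and all 10 were called lower with obstruction. Summed macrophage markers (8 genes) lay at 146 to 179, 969 to 1242 and 802 to 1166 CPM, and summed fibroblast markers (8 genes) at 211 to 308, 2269 to 4049 and 1421 to 2199 CPM. All 8 of both lists were called higher with obstruction. Thick limb and distal tubule markers (8 genes, 7 called lower) summed to 10519 to 11911, 3800.5 to 5975.5 and 4444 to 5829 CPM. Those of collecting duct (8 genes, 6 called lower) summed to 729.7 to 1030.9, 278.5 to 514.2 and 311 to 514 CPM. Those of injured tubule (8 genes, all called higher) summed to 1245 to 1654, 18584.5 to 30829 and 22156 to 34850 CPM. With obstruction, 36.2% of all tested genes were called higher and 28.6% lower. In whole tissue, fewer cells of a type and less RNA per cell cannot be told apart, and the part of these markers in the results was not tested.

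The genes lie on 7 chromosomes, and all are protein coding in GENCODE M21 (GRCm38). Hk1 is at chr10:62268855-62379908 (minus strand), Hk2 at chr6:82725025-82774454 (minus) and Pfkl at chr10:77986947-78010083 (minus). Pfkm is at chr15:98092589-98132451 (plus), Pfkp at chr13:6579768-6648777 (minus) and Aldoa at chr7:126795234-126800751 (minus). Pgk1 is at chrX:106187100-106203699 (plus), Pkm at chr9:59656368-59679375 (plus) and Ldha at chr7:46841475-46855627 (plus). Many glycolytic genes carry hypoxia response elements, bound by the factor HIF at the core letters ACGTG. The promoter windows of RefSeq (GRCm38.p6; 250 bases before to 50 after each start) were searched for ACGTG on both strands (CACGT on the other), and 9 of 17 windows of the members, belonging to 7 of the 9 genes, held it, against 19.6% of all 32851 windows. The E-box CACGTG, which contains both of these strings, was in 2 of the 17 windows and in 7.15% of all windows. Windows of 1 gene can overlap, and a match is a description of letters, not a site. Below are the single windows of the 2 genes that rose with obstruction (Hk2 and Pfkp) and windows of 2 that fell (Pgk1 and Ldha), each read 5′ to 3′ on the gene's strand, with every match in capitals. They cover chr6:82774405-82774704 (minus), chr13:6648722-6649021 (minus), chrX:106186850-106187149 (plus) and chr7:46845554-46845853 (plus).
Hk2: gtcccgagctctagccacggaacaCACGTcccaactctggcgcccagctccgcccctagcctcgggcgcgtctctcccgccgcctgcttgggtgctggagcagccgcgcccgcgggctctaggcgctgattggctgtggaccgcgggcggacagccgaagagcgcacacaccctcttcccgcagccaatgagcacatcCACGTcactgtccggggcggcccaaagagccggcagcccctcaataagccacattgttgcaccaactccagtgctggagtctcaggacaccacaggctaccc
Pfkp: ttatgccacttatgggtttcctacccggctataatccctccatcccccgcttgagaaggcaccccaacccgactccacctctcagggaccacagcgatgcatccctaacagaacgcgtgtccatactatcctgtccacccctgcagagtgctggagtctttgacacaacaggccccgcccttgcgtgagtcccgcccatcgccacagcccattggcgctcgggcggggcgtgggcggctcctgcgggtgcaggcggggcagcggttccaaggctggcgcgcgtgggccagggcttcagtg
Pgk1: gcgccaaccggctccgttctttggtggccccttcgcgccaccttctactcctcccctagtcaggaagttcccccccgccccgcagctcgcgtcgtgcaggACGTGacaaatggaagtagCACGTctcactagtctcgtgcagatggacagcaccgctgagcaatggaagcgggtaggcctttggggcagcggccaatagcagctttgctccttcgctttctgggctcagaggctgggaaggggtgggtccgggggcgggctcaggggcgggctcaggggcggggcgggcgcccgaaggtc
Ldha: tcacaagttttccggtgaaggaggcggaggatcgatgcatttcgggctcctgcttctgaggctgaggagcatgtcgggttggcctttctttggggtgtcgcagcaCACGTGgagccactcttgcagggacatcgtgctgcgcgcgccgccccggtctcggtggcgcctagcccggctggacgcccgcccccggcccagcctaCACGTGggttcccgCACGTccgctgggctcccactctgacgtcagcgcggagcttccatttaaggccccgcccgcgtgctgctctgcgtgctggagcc
The Hk2 and Pgk1 windows each hold 2 matches and the Ldha window 5, of which 4 are the paired strands of 2 E-boxes, while the Pfkp window holds none. The other window of Ldha and the single window of Pfkl, also called lower, hold none. Genes with matches thus include members that rose and members that fell, and so do genes without a match.

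With obstruction, the 9 genes did not move as a block. Hk2 and Pfkp rose, Pfkm, Pgk1 and Ldha fell by margins that no library crossed, Hk1, Pfkl and Aldoa were called lower with overlapping groups, and Pkm was not called. Of the 9, 2 were called higher and 6 lower in vehicle against healthy kidneys, where 36.2% of all tested genes were called higher and 28.6% lower, 64.8% in all. The groups did not overlap for 5 of the 9, and for 44.2% of all tested genes. The median log2 fold change of the members was -0.35, beside 0.09 over all tested genes. TMM factors were 0.751 to 0.843 in healthy and 1.02 to 1.11 in vehicle libraries; without them the median of all genes moved to 0.51, and the log2 fold changes of Hk1, Pfkl and Aldoa became 0.09, 0.06 and 0.07 (edgeR adjusted p = 0.472, 0.692 and 0.59). These 3 directions therefore depend on the scaling.

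**Figure D1:**
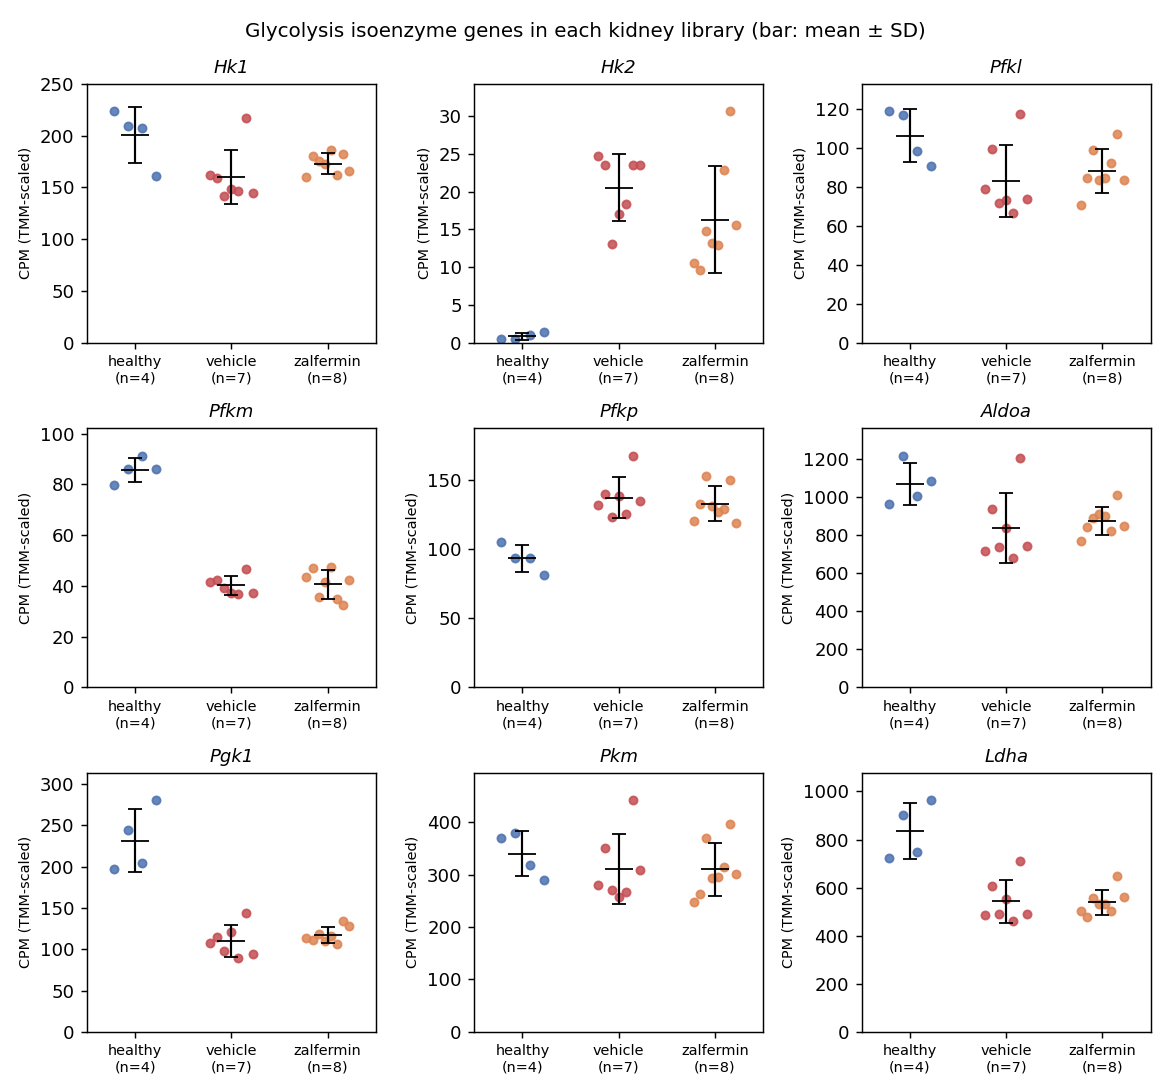
Level of each of the 9 genes in every library, in TMM-scaled CPM (y axis, from 0), by group (x axis: healthy, n = 4; vehicle, n = 7; zalfermin, n = 8); points are libraries and bars the mean ± SD. Hk2 lay between 0.444 and 1.47 CPM in healthy and between 9.59 and 30.6 CPM in obstructed libraries, while Pkm overlapped across the 3 groups.

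Hexokinase phosphorylates glucose and commits it to the cell. Hk1 encodes the form found in most tissues, and Hk2 a form known from muscle, fat and growing or inflamed cells. Hk2 was at 0.533, 0.444, 1.01 and 1.47 CPM in the 4 healthy libraries, from 38 reads in all. It was at 13.1, 23.5 and 24.6 CPM in vehicle libraries (lowest, median and highest of 7). The groups were far apart, and Hk2 rose 23.8-fold (log2 fold change 4.57 ± 0.39, SE, edgeR adjusted p = 8.08e-10), above 98.9% of all tested genes. Hk1 was at 223, 209, 207 and 161 CPM in healthy libraries and at 142, 149 and 217 CPM in vehicle libraries. The highest vehicle library, replicate 6, lay inside the healthy range, as did 1 other vehicle library. Hk1 was called 1.25-fold lower (log2 fold change -0.33 ± 0.11, edgeR adjusted p = 0.00973; -0.46 without vehicle replicate 6).

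Phosphofructokinase catalyses the committed step of glycolysis as a tetramer of the liver (Pfkl), muscle (Pfkm) and platelet (Pfkp) subunits, which can mix. Pfkm was at 79.8, 86.1, 91.2 and 85.9 CPM in healthy libraries and at 36.8, 39.1 and 46.8 CPM in vehicle libraries. No library overlapped, and Pfkm was 2.14-fold lower (log2 fold change -1.09 ± 0.10, edgeR adjusted p = 1.8e-09). Pfkp was at 104.8, 93.7, 93.6 and 80.9 CPM in healthy libraries and at 122.8, 134 and 167 CPM in vehicle libraries. All vehicle libraries lay above all healthy ones, and Pfkp rose 1.47-fold (log2 fold change 0.56 ± 0.10, edgeR adjusted p = 2.65e-05; 0.45 without vehicle replicate 6). Pfkp shares 748 of 13401 exon bases (5.58%) with Pitrm1 on the opposite strand, so some reads could belong to either gene if strand was not used in counting. Pfkl was at 118.8, 116.7, 98.6 and 91.0 CPM in healthy libraries and at 66.5, 74.0 and 117 CPM in vehicle libraries. The groups overlapped, and Pfkl was called lower (log2 fold change -0.36 ± 0.14, edgeR adjusted p = 0.0255). Leaving out vehicle replicate 3 or 5, or healthy replicate 1 or 2, ended that call, with an edgeR adjusted p of 0.0883 at most. Leaving out vehicle replicate 6, the highest vehicle library for Pfkl, gave a log2 fold change of -0.51 (edgeR adjusted p = 0.000327).

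The enzymes that follow split and oxidise the sugar. Aldoa encodes the aldolase of muscle and most other cells. Aldoa was at 965, 1217, 1005 and 1083 CPM in healthy libraries and at 679, 744 and 1204 CPM in vehicle libraries. Vehicle replicate 6 lay within the healthy range and the other 6 below it. Aldoa was called lower (log2 fold change -0.35 ± 0.13, edgeR adjusted p = 0.0195; -0.51 without vehicle replicate 6), and without healthy replicate 2 the adjusted p was 0.0868. Pgk1 encodes the phosphoglycerate kinase of somatic cells, which makes the first ATP of the pathway. It was at 197, 244, 204.5 and 280.3 CPM in healthy libraries and at 88.9, 108 and 144 CPM in vehicle libraries, with no overlap. Pgk1 was 2.10-fold lower (log2 fold change -1.07 ± 0.11, edgeR adjusted p = 2.88e-08).

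Pyruvate kinase makes pyruvate, and lactate dehydrogenase interconverts pyruvate and lactate, with the A subunit (Ldha) known for lactate production and the B subunit (Ldhb) for lactate use. Pkm was at 370.5, 379.8, 318 and 289 CPM in healthy libraries and at 256, 281 and 442 CPM in vehicle libraries. The ranges overlapped on both sides and Pkm was not called (log2 fold change -0.13 ± 0.14, edgeR adjusted p = 0.444). Without vehicle replicate 6, its highest library, it was called lower (-0.28, adjusted p = 0.039). Ldha was at 724, 904, 749.7 and 963 CPM in healthy libraries and at 462, 492 and 710 CPM in vehicle libraries. The groups did not overlap, and Ldha was 1.54-fold lower (log2 fold change -0.62 ± 0.12, edgeR adjusted p = 6.09e-05). With library totals and no scaling factor its log2 fold change was -0.19 and it was not called (adjusted p = 0.105).

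Ratios of 2 isoenzyme genes within a library ask whether members of a family changed by different amounts, and they do not depend on library scaling. For each of the 6 ratios given here the difference in mean log2 ratio between vehicle and healthy was tested by a two-sided exact permutation test. No ratio overlapped between the 2 groups, and each had the smallest p that 7 against 4 libraries allow (exact permutation p = 0.00606, adjusted p = 0.00909 over 21 ratio tests). The Hk2 to Hk1 count ratio was 0.00463 ± 0.00325 in healthy and 0.129 ± 0.0261 in vehicle kidneys (SD, n = 4 and 7), a log2 difference of 4.95 ± 0.48 (SE). In the phosphofructokinase family, Pfkp gained on both partners, by 1.65 ± 0.11 against Pfkm and by 0.93 ± 0.08 against Pfkl. Pfkm lost against Pfkl by a log2 difference of -0.72 ± 0.14. The phosphofructokinase ratios are not separate results, since each follows from the other 2.

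The other 2 ratios set a member against an isoenzyme known from liver or heart. Pkm lost against Pklr, which encodes the pyruvate kinase of liver, red cells and proximal tubule (log2 difference -1.37 ± 0.13). Pklr rose in vehicle kidneys from 38.7 ± 2.92 to 90.5 ± 8.04 CPM (log2 fold change 1.22 ± 0.12, edgeR adjusted p = 1.19e-08). Of 5 red cell markers 4 were called lower and 0 higher, with sums of 207 to 429.7 CPM in healthy and 55.6 to 542 CPM in vehicle libraries; their part in the level of Pklr was not tested. Ldha lost against Ldhb (log2 difference -0.81 ± 0.07), which was itself not called (1289 ± 183 against 1467 ± 236 CPM, edgeR adjusted p = 0.193) but was with library totals and no scaling factor (log2 fold change 0.62, edgeR adjusted p = 8.98e-05).

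**Figure D2:**
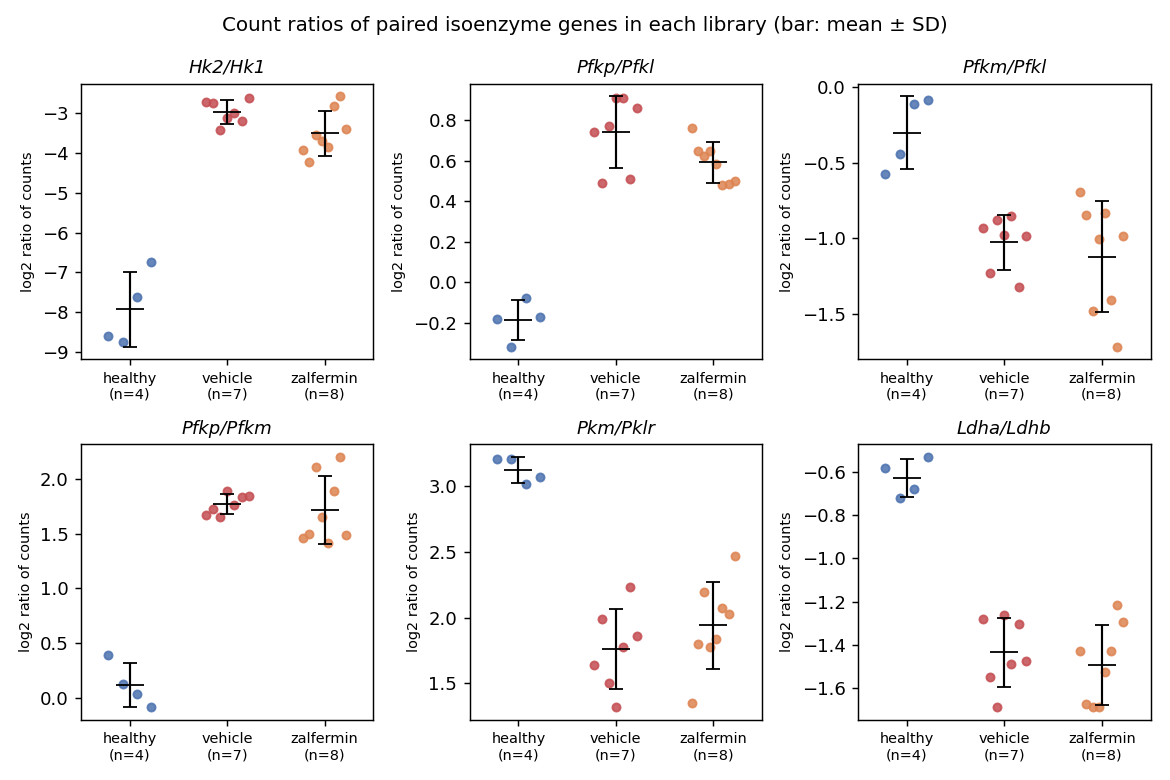
Log2 ratio of the counts of 2 isoenzyme genes in every library (y axis, 0.5 added to both counts) by group (x axis: healthy, n = 4; vehicle, n = 7; zalfermin, n = 8); points are libraries and bars the mean ± SD. All 6 ratios separate healthy from vehicle libraries, and all 6 overlap between vehicle and zalfermin libraries.

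The make-up of each family was described by dividing counts by the length of the gene's exons, with no test. Hk1 made up 96.3% ± 0.911 of the hexokinase family of healthy kidneys, 75.6% ± 2.13 of that of vehicle kidneys and 80.3% ± 4.66 of that of zalfermin kidneys (SD, n = 4, 7 and 8). Hk2 held 0.634% ± 0.439, 13.9% ± 2.44 and 10.6% ± 3.76, and most of the rest was Hk3, a myeloid form, and Hkdc1. Summed over the family, hexokinase RNA was at 24.4 ± 3.11 CPM per kb in healthy and 24.8 ± 3.93 in vehicle kidneys. The hexokinase shares depend on the length used. Without length scaling Hk2 held 0.4511% in healthy and 10.73% in vehicle kidneys, and Hk1 97.81% and 83.36%. With the length of the longest transcript Hk2 held 0.349% and 8.399%, and Hk1 97.51% and 84.03%. The sum was taken with exon length and TMM scaling only, so a steady total was not shown for other lengths or scalings.

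Pfkm held 53.0% ± 3.91 of the phosphofructokinase family in healthy kidneys and 34.8% ± 1.87 in vehicle kidneys. Pfkp went from 14.3% ± 1.06 to 29.6% ± 1.59 and Pfkl from 32.7% ± 3.10 to 35.6% ± 2.79. Summed over the family, RNA was at 48.6 ± 2.17 CPM per kb in healthy and 34.7 ± 4.81 in vehicle kidneys. This sum was taken with exon length and TMM scaling only. TMM factors were 0.751 to 0.843 in healthy and 1.02 to 1.11 in vehicle libraries, and a lower total was not shown without them. The shares and the order of the 3 genes depend on the length used. Without length scaling Pfkp held 32.6% and 52.8%, Pfkm 30.2% and 15.5%, and the share of Pfkl was lower in vehicle kidneys (37.2% and 31.6%). With the length of the longest transcript Pfkm held 43.3% and Pfkl 41.2% in healthy kidneys, and Pfkl 42.5% and Pfkp 30.5% in vehicle kidneys. A larger share of Pfkp and a smaller one of Pfkm in vehicle than in healthy kidneys were seen with all 3 choices.

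Pkm held 84.96% ± 0.883 of pyruvate kinase in healthy and 68.5% ± 4.56 in vehicle kidneys, and Ldha 23.5% ± 1.10 and 14.97% ± 1.40 of lactate dehydrogenase. For lactate dehydrogenase the share of Ldha was smaller while the sum was 1073 ± 149 and 1099 ± 172 CPM per kb. That sum, too, was taken with exon length and TMM scaling only. Without length scaling Pkm held 89.72% and 77.02%, and Ldha 39.33% and 27.04%. With the length of the longest transcript Pkm held 91.24% and 79.98%, and Ldha 31.78% and 21.04%. Both shares were smaller in vehicle than in healthy kidneys with every length choice.

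**Figure D3:**
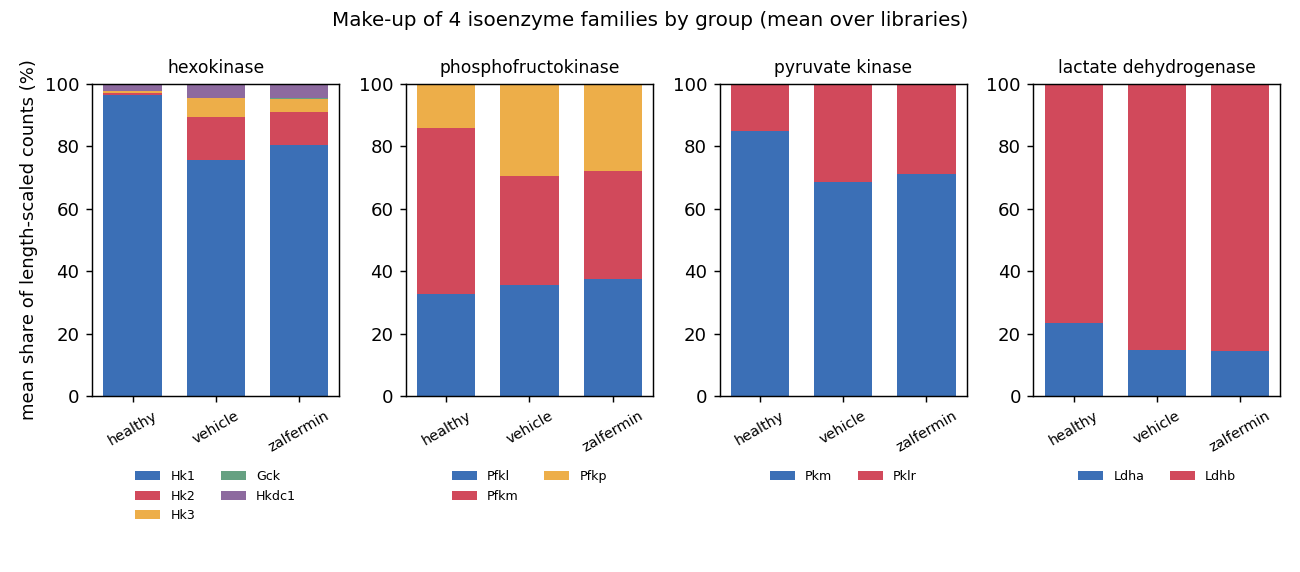
Mean share of each isoenzyme gene in its family (y axis, percent of counts divided by exon length) in healthy, vehicle and zalfermin kidneys (x axis) for 4 families. The Hk2 band goes from 0.634% in healthy to 13.9% in vehicle kidneys, and the Pfkp band from 14.3% to 29.6%.

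Compared per kilobase of exon, Aldoa was the most abundant of the 9 genes in healthy kidneys (366.7 ± 38.2 CPM per kb), followed by Ldha (252 ± 35.1), Pgk1 (103 ± 17.1) and Pkm (67.9 ± 8.59). Pfkm (25.7 ± 1.40) and Hk1 (23.5 ± 3.16) overlapped in range, and Pfkl (15.9 ± 2.05), Pfkp (6.96 ± 0.729) and Hk2 (0.145 ± 0.0796) followed with no overlap between neighbours. In vehicle kidneys Aldoa (287.6 ± 63.2) and Ldha (164 ± 26.9) kept the first ranks, while Pkm (62.1 ± 13.2) and Pgk1 (49.0 ± 8.41) overlapped. Hk1, Pfkl, Pfkm and Pfkp then followed from 18.7 to 10.2 CPM per kb, each overlapping its neighbour, and Hk2 was last at 3.44 ± 0.737. In zalfermin kidneys the order of the 9 was that of vehicle kidneys. Parts of this order depend on the length used. By the longest transcript, Pkm ranked 3 and Pgk1 4 in healthy as in vehicle kidneys, so these genes did not change places. By that length Hk1 also ranked above Pfkm in healthy kidneys, and Pfkp above Pfkm in vehicle and zalfermin kidneys.

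Pkm makes 2 main enzymes by using either of 2 alternative exons, giving the M1 form of muscle and brain and the M2 form of most other adult and growing cells. Gene counts add both forms, so the M1 to M2 ratio was not analysed here. The exons are shown because they are the only stretch in which the 2 forms differ: each is 167 bases, and 103 positions (61.7%) are the same. Their GENCODE M21 sequences are given 5′ to 3′, with differing positions in capitals. The M1 exon of transcript Pkm-202 is at chr9:59675029-59675195 and the M2 exon of Pkm-201 at chr9:59675568-59675734 (both plus strand).
M1 exon: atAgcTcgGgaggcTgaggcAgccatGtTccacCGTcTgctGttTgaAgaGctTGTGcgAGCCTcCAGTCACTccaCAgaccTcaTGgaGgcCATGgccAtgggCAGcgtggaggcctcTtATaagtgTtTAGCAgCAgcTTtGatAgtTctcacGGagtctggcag
M2 exon: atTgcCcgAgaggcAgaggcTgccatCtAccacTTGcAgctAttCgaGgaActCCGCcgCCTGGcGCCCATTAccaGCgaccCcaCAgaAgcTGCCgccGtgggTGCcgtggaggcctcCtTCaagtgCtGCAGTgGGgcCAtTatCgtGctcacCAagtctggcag
Of 7 factors known to act on this choice, 3 were called higher and 1 lower in vehicle kidneys. Among all tested genes 36.2% were called higher there and 28.6% lower. Hnrnpa1 (74.7 ± 9.24 to 167.9 ± 11.6 CPM, log2 fold change 1.17 ± 0.09, edgeR adjusted p = 1.85e-10) and Ptbp1 (log2 fold change 0.38 ± 0.08, adjusted p = 0.000196) rose. Khdrbs1 was also called higher (0.51 ± 0.11), and Hnrnpa2b1 was called lower (-0.27 ± 0.11, adjusted p = 0.0324), with a value of 0.16 when library totals replaced TMM scaling. Leaving out healthy replicate 1, 3 or 4 in turn left Hnrnpa2b1 uncalled (largest adjusted p 0.0717). Without vehicle replicate 6 the factors called higher were 6, Ptbp2, Srsf3 and Rbm4 included.

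No difference between zalfermin and vehicle kidneys in the 9 genes passed the test in edgeR. Of the 9, 0 were called by edgeR, against 1.81% of all tested genes (0.867% higher and 0.942% lower), and 0 had an unadjusted p below 0.05. The groups overlapped for all 9, and did not for 0.605% of all tested genes. Their log2 fold changes ran from -0.34 (Hk2) to 0.11 (Hk1), with a median of 0.02 beside 0.01 over all genes. DESeq2 also called 0, while voom with quality weights called Hk1 (0.22, adjusted p = 0.0235) and Aldoa (0.23, adjusted p = 0.0421) higher. A p that misses the threshold does not show that levels were equal, and the standard errors, 0.08 to 0.21 on the log2 scale, set how large a difference could have been missed.

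Hk2 had the widest spread: it was at 9.59, 13.99 and 30.6 CPM in zalfermin libraries (lowest, median and highest of 8) against 13.1 to 24.6 CPM in vehicle libraries. Both the lowest and the highest value of the 15 obstructed libraries were from zalfermin kidneys, and the difference was not called (log2 fold change -0.34 ± 0.21, edgeR adjusted p = 0.467). Hk1 was at 159.6, 174 and 186 CPM, inside the range of the vehicle libraries (log2 fold change 0.11 ± 0.09, adjusted p = 0.568). Among phosphofructokinase genes, Pfkl was at 70.8 to 107 CPM, Pfkm at 32.6 to 47.5 and Pfkp at 118.5 to 152.8 in zalfermin libraries, each overlapping the vehicle range. Adjusted p in edgeR was 0.754, 0.949 and 0.807 for these 3 genes.

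Aldoa was at 771 to 1013, Pgk1 at 106.5 to 134.6, Pkm at 247 to 397 and Ldha at 477 to 648 CPM in zalfermin libraries. All 4 overlapped vehicle libraries, with edgeR adjusted p between 0.686 and 0.994. None of the 6 isoenzyme ratios passed at an adjusted p below 0.05. The nearest were Hk2 to Hk1 (log2 difference -0.53 ± 0.23, exact permutation p = 0.046, adjusted p = 0.0644 over 21 tests) and Pfkp to Pfkl (-0.15 ± 0.08, exact permutation p = 0.0609, adjusted p = 0.08). The first passed without vehicle replicate 3, zalfermin replicate 6 or zalfermin replicate 7 (adjusted p 0.0122 to 0.12 over all left-out libraries), the second without vehicle replicate 2 or 6 (0.0242 to 0.163). Mean log2 ratios of Hk2 to Hk1 were -7.92, -2.98 and -3.51 and of Pfkp to Pfkl -0.19, 0.74 and 0.59 (healthy, vehicle and zalfermin), and no zalfermin library reached the healthy range of either.

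Against healthy kidneys, zalfermin kidneys were compared with the same 4 healthy libraries that served for vehicle, so this comparison and the one above share samples. Of the 9 genes 2 were called higher and 4 lower, where 37.3% of all tested genes were called higher and 27% lower, 64.3% in all. The groups did not overlap for 5 of the 9, and for 51.2% of all tested genes. Hk2 rose with a log2 fold change of 4.23 (4.57 in vehicle) and Pfkp with 0.51 (0.56 in vehicle). Pfkm (-1.08), Pgk1 (-0.98), Ldha (-0.63) and Aldoa (-0.29) were called lower. Aldoa had an edgeR adjusted p of 0.0472, lost its call in 13 of 19 fits that left out 1 library (adjusted p up to 0.178), and had a value of 0.11 with library totals and no factor. Over those fits the members called lower ranged from 3 to 6. Hk1 (-0.21, adjusted p = 0.0753), Pfkl (-0.27, adjusted p = 0.08) and Pkm (-0.13, adjusted p = 0.42) were not called. Without vehicle replicate 6, Hk1 (-0.28, edgeR adjusted p = 0.00203) and Pfkl (-0.33, edgeR adjusted p = 0.00774) were called lower. That library enters the common estimate of spread, but leaving it out also moved the fold changes. For zalfermin against healthy, the median over all genes went from 0.125 to 0.0623. Which of these changes brought the 2 calls was not tested. All 6 ratios differed from healthy with no overlap (exact permutation p = 0.00404, the smallest for 8 against 4 libraries, adjusted p = 0.00909).

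The other genes of glycolysis moved in both directions as well. Of 22 further glycolytic enzyme genes 17 had enough reads to be tested. In vehicle against healthy kidneys 4 of these were called higher and 10 lower, with a median log2 fold change of -0.65. Over all tested genes, 36.2% were called higher and 28.6% lower. The 4 higher were Hk3 (3.31), Hkdc1 (2.96 to 5.93 CPM), Pklr and Eno2 (3.35), the enolase known from neurons. Among the 10 lower were Aldoc (-1.99), Tpi1 (-0.88), Gapdh (-0.84), Pgam1 (-0.73), Eno1 (-0.67) and Gpi1 (-0.38; 0.05 with library totals and no factor). With zalfermin, 1 of the 17 was called against vehicle: Ldhd, which acts on D-lactate (701 ± 282 to 439 ± 67.7 CPM, log2 fold change -0.68 ± 0.17, edgeR adjusted p = 0.0427). That call was lost in 11 of 19 fits that left out 1 library. Over all tested genes, 0.942% were called lower with zalfermin.

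**Figure D4:**
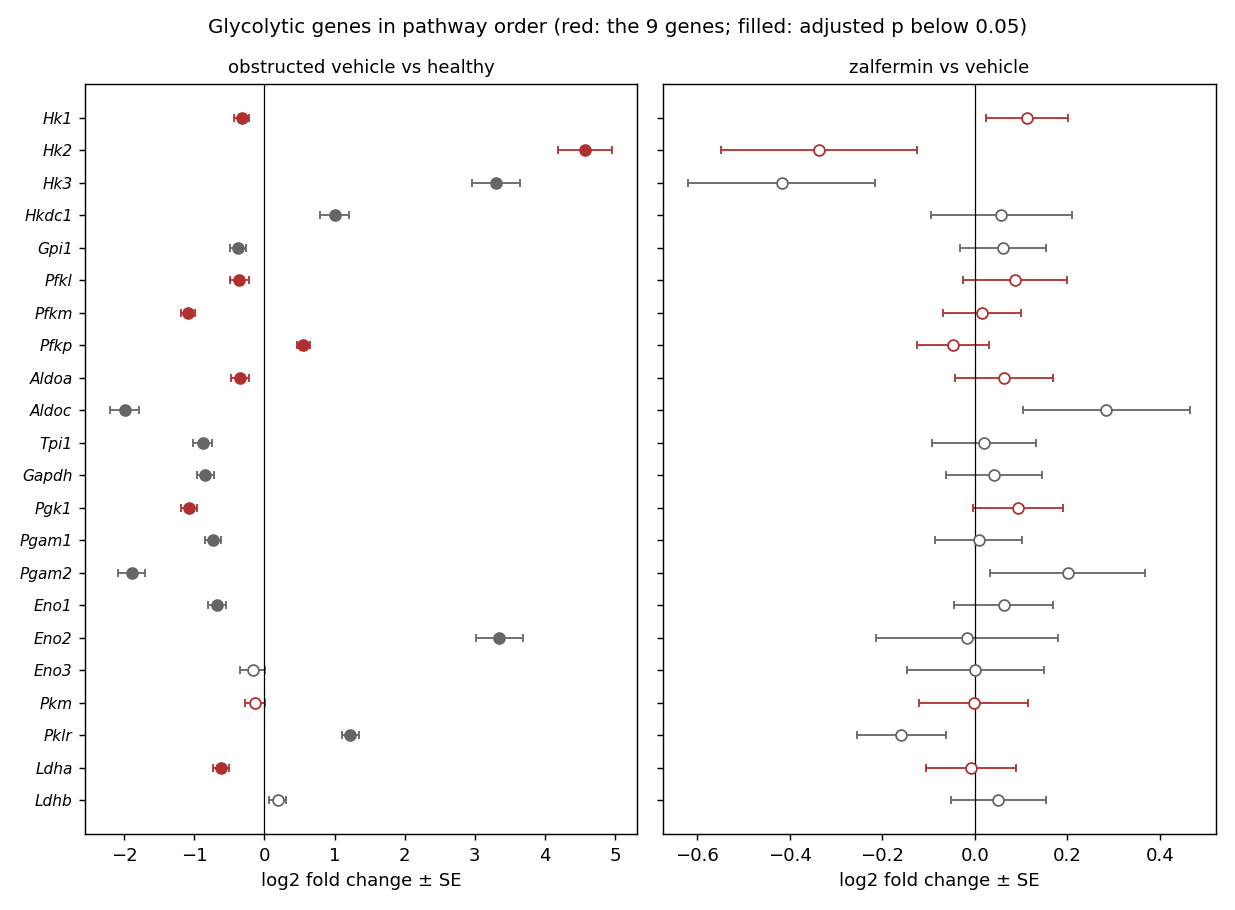
Log2 fold change ± SE (x axis) of glycolytic genes in pathway order (y axis) for vehicle against healthy (left) and zalfermin against vehicle (right, with a narrower scale); red marks the 9 genes and filled points an edgeR adjusted p below 0.05. On the left Hk2, Hk3 and Eno2 lie above 3, and on the right no point of the 9 is filled.

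Genes that feed or drain the pathway were described from lists set for this work. Their counts stand beside 36.2% of all tested genes called higher with obstruction and 28.6% called lower. Of 10 glucose and lactate carriers, 2 were called higher with obstruction, Slc2a3 (log2 fold change 1.38) and the lactate exporter Slc16a3 (2.33), and 6 lower, among them the tubular carriers Slc5a2 (-2.50) and Slc2a2 (-1.03). Slc2a1, the most widespread glucose carrier, averaged 79.3 CPM in healthy kidneys, against 80.9 CPM in vehicle kidneys, and was not called. Of 12 genes for pyruvate entry into mitochondria 10 were called lower and 0 higher, including Mpc1 (-1.66) and Pdha1 (-1.26). Of 8 genes of gluconeogenesis, the reverse route, 5 were lower, led by G6pc (-3.51) and Fbp1 (-2.27), and 1 was higher, Pck2 (1.34).

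Regulators of the members moved in both directions too, where 36.2% of all tested genes were called higher with obstruction and 28.6% lower. Of 5 genes that set fructose 2,6-bisphosphate, the activator of phosphofructokinase, 3 were called higher with obstruction: Pfkfb1 (0.79), Pfkfb3 (0.78) and Pfkfb4 (0.47). Pfkfb1 lost its call without vehicle replicate 5 or 6 or healthy replicate 2 or 4 (edgeR adjusted p up to 0.138) and with voom (adjusted p = 0.151). Of 8 transcription factors of glycolysis 4 were called higher, among them Myc (11.3 to 51.9 CPM, log2 fold change 2.21, edgeR adjusted p = 1.59e-09) and Mlxip (0.85), and 3 lower. The number called higher ranged from 2 to 5 as libraries were left out: leaving out healthy replicate 2 or 4 left Epas1 and Arnt uncalled (largest edgeR adjusted p 0.097 and 0.0914). Hif1a was not called (0.18, adjusted p = 0.354), but was without vehicle replicate 6 (edgeR adjusted p = 0.00776). Of 13 hypoxia targets outside glycolysis, 2 were higher, Ddit4 (1.53) and P4ha2 (0.45), and 5 lower, among them Vegfa (-1.16) and Car9 (-2.08).

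With zalfermin against vehicle, 1 of the 10 carriers was called, 1 of the 13 hypoxia targets, 1 of the 12 pyruvate genes, 1 of the 8 genes of gluconeogenesis and 1 of the 5 that set fructose 2,6-bisphosphate, all higher, where 0.867% of all tested genes were called higher. Of the 8 transcription factors and 7 splicing factors 0 were called by edgeR, with an unadjusted p below 0.05 for Ppargc1a (0.00174) and Hif1a (0.0465), and DESeq2 called 1 transcription factor and 0 splicing factors. The called genes were Slc2a2 (103 ± 20.8 to 147 ± 19.2 CPM, log2 fold change 0.51, edgeR adjusted p = 0.0212), Bnip3 (0.35, adjusted p = 0.021), Pdk1 (0.39, adjusted p = 0.0271), Fbp2 (0.51, adjusted p = 0.0374) and Pfkfb3 (31.5 ± 3.62 to 41.1 ± 6.46 CPM, 0.38, adjusted p = 0.0421). Slc2a2, Bnip3 and Pdk1 were lower and Pfkfb3 higher with obstruction, and Fbp2 was not called there (0.14). Leaving out 1 library lost the call of Slc2a2 without vehicle replicate 2 (adjusted p = 0.0521) and of Bnip3 without vehicle replicate 7 (0.0529). Those of Pdk1, Fbp2 and Pfkfb3 were lost in 5, 10 and 10 of 19 such fits.

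Within the 15 obstructed libraries, most of the 9 genes varied together. Correlations of log2 CPM were computed over these libraries after each group's mean was removed, for 36 pairs, with a permutation test adjusted over the pairs. The closest pairs were Aldoa and Ldha (r = 0.940, rho = 0.857, adjusted permutation p = 0.00036 and 0.007; r = 0.867 without the 2 farthest libraries), Pfkl and Pkm (r = 0.937, rho = 0.829, adjusted p = 0.00036 and 0.007; r = 0.862) and Pgk1 and Ldha (r = 0.906, rho = 0.832, adjusted p = 0.00036 and 0.0083; r = 0.811). Vehicle replicate 6, high for several members, was among the 2 left out in each case, and without it alone r was 0.901, 0.899 and 0.840. The libraries share composition, and a common scaling factor moves all genes of a library together.

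Pfkm stood outside this pattern, and Hk2 did in part. Its r with the other 8 genes ran from -0.541 (Hk2; rho = -0.425, adjusted permutation p = 0.095 and 0.21) to 0.456 (Hk1; rho = 0.393, adjusted p = 0.056 and 0.19), and the former was -0.143 without zalfermin replicates 6 and 7. These 2 libraries had the highest Hk2 of the zalfermin group (22.8 and 30.6 CPM) and the lowest Pfkm (34.7 and 32.6 CPM). Hk2 was closest to Pkm (r = 0.677, rho = 0.725, adjusted p = 0.011 and 0.024; r = 0.636 without those libraries). Its only other pair with an adjusted permutation p below 0.05 was with Pfkl (r = 0.594, rho = 0.607, adjusted p = 0.019 and 0.049). Without vehicle replicate 6, r of Pfkm with the other 8 genes ran from -0.644 (Hk2) to 0.283 (Hk1).

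**Figure D5:**
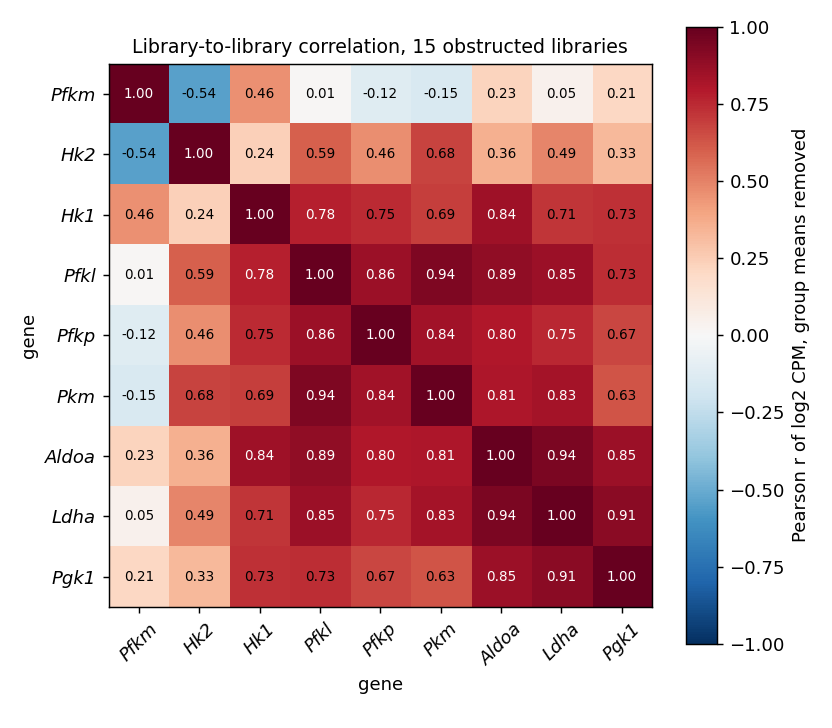
Pearson correlation of log2 CPM between the 9 genes (both axes) over 15 obstructed libraries with group means removed; colour and number give r. Pfkm has the palest row, from -0.54 to 0.46, and Aldoa with Ldha and Pfkl with Pkm reach 0.94.

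Over 11612 genes whose mean reached 5 CPM, those most like a member over the same 15 libraries were picked by the highest r, so these values are descriptions without a test. For Hk2 they included the lactate exporter Slc16a3 (r = 0.873; 0.705 without zalfermin replicates 6 and 7). Pfkm was most like Ppp1r1b (0.934; 0.904) and Slc2a5, a fructose carrier (0.896; 0.836). Pkm was most like Timp1, an inhibitor of matrix proteases (0.932; 0.861), and Samd1 (0.931; 0.861). For Aldoa the nearest were Mrpl38 (0.970) and Ube2m (0.967), for Ldha Ddx56 (0.957) and P4hb (0.949), and for Pgk1 D17Wsu92e (0.922) and Mcfd2 (0.915). For Hk1 they were Fpgs (0.956; 0.841 without vehicle replicates 3 and 6) and Pmvk (0.955), for Pfkl Gnb2 (0.944) and St14 (0.936), and for Pfkp Thop1 (0.930) and Trp53 (0.916).

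How reads that match several places were counted was not stated. Pseudogenes and copies of Aldoa, Ldha and Pgk1 in the table held at most 0.0625% of the reads of their parent gene. Pkm shares 767 of 5001 exon bases with Gm49759 on the same strand, which held 1.99% as many reads. Skeletal muscle markers (6 genes), which would mark adhering muscle, a tissue rich in Pfkm, Aldoa and Pkm, summed to at most 0.444 CPM in healthy, 2.38 in vehicle and 1.75 in zalfermin libraries.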

How the data were processed

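Kidney RNA was measured in 4 healthy, 7 vehicle and 8 zalfermin libraries, grouped by the sample labels. The authors deposited whole-number read counts for each gene, not normalized. Per the labels' protocols, a directional library kit was used; per the submitters' processing notes, STAR 2.7.0f and the build GRCm38 were used. The counting program, strand setting and annotation: not given in the sources used here. All 55536 identifiers matched GENCODE M21, which gave coordinates and exon lengths. Library totals were 12209122 to 14844103, and no replicates differed by so little as to be 1 library (55 pairs within groups compared).

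The edgeR function filterByExpr kept 16026 genes (count of at least 10, total of at least 15), which were scaled by TMM and fitted as 1 quasi-likelihood model of all 19 libraries (edgeR 4.0.16, R 4.3.3). Ratios had 0.5 added to both counts and were tested by two-sided exact permutation (scipy 1.17.1). Correlations used 100000 permutations. Scripts were tested on simulated data.

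The members and lists were chosen with earlier results of these data known. Named genes were the members, the tested other glycolytic enzymes, and in each further list the members with the smallest p, those against the majority and called ones where 5 or fewer, plus the 2 genes most like each member; some of these, and 1 of the 7 ratios tested with its family, are not reported here, and Slc2a1, Hif1a, Pdha1, Slc2a2 with obstruction and Mlxip were named after their values were seen. Alternatives were RLE and upper-quartile scaling, no filter, 1 CPM in 10 libraries, a robust fit, a 2-group fit, DESeq2 1.42.0, voom with quality weights (limma 3.58.1), other ratio and length settings, and each library left out; library totals without a factor were added after seeing the data.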

Additional observations from a re-analysis of the deposited data

Results flagged for a closer look

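Vehicle replicate 6 lay far above the other vehicle libraries for 2 of the 9 genes. Its Hk1 level was 217 CPM, against 141.8 to 161.7 CPM in the other 6, and its Pfkp level was 167.1 CPM, against 122.8 to 139.9 CPM. In all, 48 groups of values (9 genes and 7 ratios in 3 groups) were checked with Dixon's criterion, and chance marks about 1 in 20 such groups. This library also had 19788 genes detected, fewer than any other, and the lowest share of mitochondrial counts (1.10%). Without it, the log2 fold changes of vehicle against healthy were -0.46 for Hk1 and 0.45 for Pfkp, and both remained called (edgeR adjusted p = 1.44e-05 and 3.36e-05).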

How the results depend on the processing

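The counts of members called higher with obstruction (2) held under every alternative, those called lower ranged from 4 to 7 as libraries were left out, and all 6 ratios given for the 2 comparisons with healthy kidneys kept their direction and call. Library totals without a factor, an alternative chosen after seeing the data, moved both comparisons with healthy kidneys: with obstruction 9373 genes were called higher and 2344 lower, and 2 members lower, and against healthy kidneys zalfermin gave 9451 higher and 2351 lower. Log2 fold changes of called genes that turned sign under it were, with obstruction, Hk1 0.0921, Pfkl 0.0635, Aldoa 0.0749, Gpi1 0.0501 and Hnrnpa2b1 0.156, and, for zalfermin against healthy, Aldoa 0.106, Gpi1 0.0781 and P4ha1 0.0305; no such gene was called there. The uncalled members Pkm (0.29) with obstruction and Hk1 (0.17), Pfkl (0.12) and Pkm (0.25) for zalfermin against healthy turned sign as well. For zalfermin against vehicle, edgeR called 139 genes higher and 151 lower, library totals gave 82 higher, DESeq2 260 and 342, voom 502 and 646 (2 of the members higher), and leaving out 1 library gave 71 to 242 higher and 73 to 275 lower; the causes were not tested. In that comparison the Hk2 to Hk1 log2 difference ranged from -0.66 to -0.43 and the Pfkp to Pfkl difference from -0.19 to -0.12 as libraries were left out. Upper-quartile scaling and the 2-group fit left Pfkl uncalled with obstruction (edgeR adjusted p = 0.0637 and 0.0548), and the 2-group fit also Aldoa (0.0618). No paired analysis was possible because the labels carry no replicate number that links libraries of different groups. Low read numbers limit Hk2 in healthy kidneys (38 reads in 4 libraries), so its fold change is the least precise of the 9.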
